A study of Mus musculus with 14 samples.

Results

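Bcl6+ tumor-infiltrating CD8+ T cells were set against the tumor-infiltrating CD8+ T cells labelled DN, to ask what separates a Bcl6-expressing, stem-like population from cells that express less Bcl6 but still hold Tcf7. The comparison rested on 4 of the 14 RNA-seq libraries of the series, 2 sorted as Bcl6+ and 2 as DN, chosen by the labels alone. Both groups, and the 2 TIM-3+ libraries given beside them, were CD8+ tumor-infiltrating lymphocytes (TILs) of Bcl6-RFP reporter mice, in which a fluorescent protein reports Bcl6. The mice carried E.G7 tumors, an ovalbumin-expressing lymphoma derived from the EL4 line, under the skin, and cells were sorted by flow cytometry on day 21. The labels do not spell out DN. They do not say whether replicates came from separate animals, so p-values measure only the spread between these samples, which may be technical. A further 4 libraries held OT-I cells, which carry 1 transgenic receptor that recognises ovalbumin. About 8 days after they had been transferred into mice, they were taken out of E.G7 tumors. Of these, 2 were of Bcl6-overexpressing cells and 2 of the control cells, labelled Bcl6neg, that were transferred with them.

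Bcl6 is a transcriptional repressor best known for directing the follicular helper program of CD4+ T cells, and it acts in opposition to Blimp-1, the repressor encoded by Prdm1. Among CD8+ T cells that meet antigen for a long time, a small stem-like pool keeps TCF-1, the product of Tcf7. It renews itself and gives rise to transitory effector-like cells and to terminally exhausted cells that carry TIM-3, CD39 and granzymes. Type I interferon and effector cytokines are known to pull such cells away from the TCF-1+ state.

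Total counts were 20185577 and 20644840 in the Bcl6+, 22097550 and 22304113 in the TIM-3+ and 20529410 and 20871012 in the DN libraries. Changes are log2 fold changes of Bcl6+ over DN with their standard error (SE), from edgeR's quasi-likelihood test of the deposited counts with n = 2 libraries a group. A gene was called at a Benjamini-Hochberg adjusted p below 0.05. A single value in brackets after a gene is its log2 fold change, and a range its 95% interval, which is not adjusted for the number of genes. Levels are CPM (counts scaled to a library of 1000000 reads, with TMM factors), which compare 1 gene across libraries, whereas FPKM also divides by gene length. Of 9791 genes tested, 1364 were called, which is 13.9%. Of these, 630 (6.43% of all tested) were higher and 734 (7.5%) lower in Bcl6+ cells. The counts of list members given below are to be read beside these shares. Calls of at least 2-fold numbered 350 (3.57%), with 184 (1.88%) higher and 166 (1.7%) lower. This split turned round under several alternatives, for example to 157 higher and 195 lower without Bcl6+ replicate 1. The split of all calls turned round under TPM scaling, to 781 higher and 603 lower. Without DN replicate 1 the calls numbered 712, and without DN replicate 2 they numbered 747. The 2 libraries of each group differed by more than sampling noise and were counted separately. In these sorted bulk samples, fewer cells of a type and less RNA per cell cannot be told apart.

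**Figure D1:**
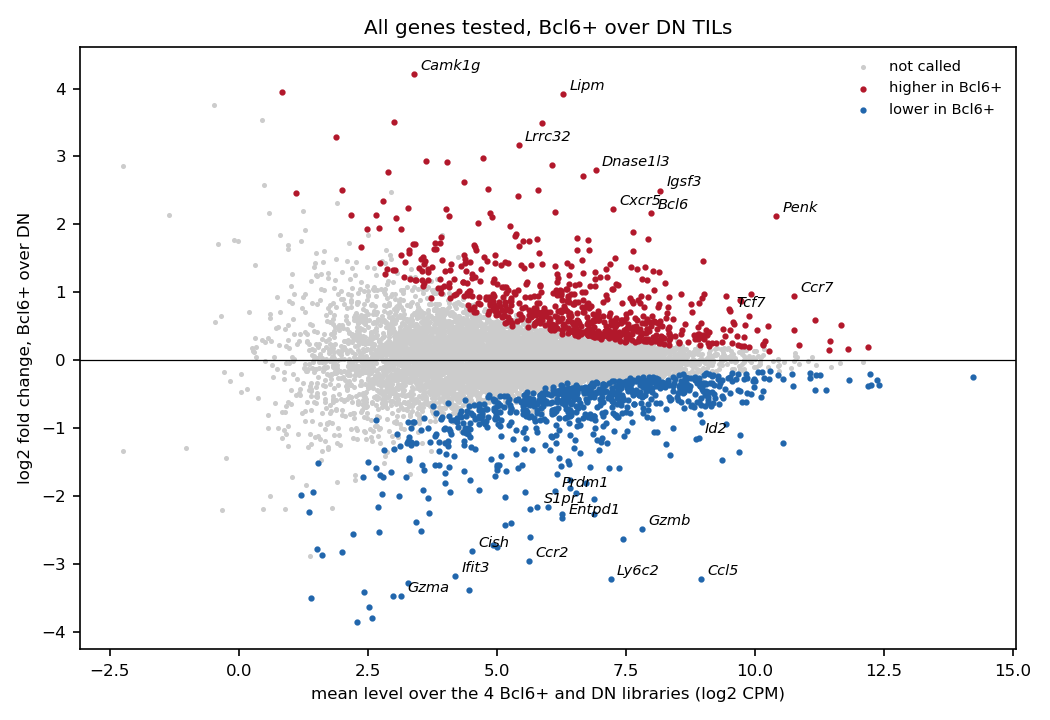
Log2 fold change of Bcl6+ over DN TILs (vertical axis) against the mean level over the 4 libraries in log2 CPM (horizontal axis), 1 point per tested gene. Red points are the 630 genes called higher in Bcl6+ cells, blue points the 734 called lower and grey points the rest. Most tested genes lie near 0, Penk stands at 2.12 and Ccl5 at -3.23.

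The sorted populations carried their markers. Bcl6 (ENSMUSG00000022508; minus strand of chromosome 16, from 23965052 to 23988852; mm10, as for all genes here) had 427 and 406 CPM in Bcl6+, 14.9 and 18.4 CPM in TIM-3+ and 90.6 and 94.7 CPM in DN libraries. Havcr2, which encodes TIM-3 (ENSMUSG00000020399; plus strand of chromosome 11, from 46454935 to 46481255), measured 58.7 and 33.2 CPM in Bcl6+, 1317 and 1376 CPM in TIM-3+ and 202 and 176 CPM in DN libraries. The groups did not overlap in either gene, and both differences only check the sort; Bcl6+ and DN libraries did not overlap in 54.2% of all genes tested. Both groups carried CD8+ T cell transcripts. The mean level of Cd3e was 319.6 FPKM in Bcl6+ and 321 FPKM in DN, and that of Cd8a was 271 FPKM in Bcl6+ and 328 FPKM in DN. Cd8a fell by 0.27 on the log2 scale in Bcl6+ cells (SE 0.04, adjusted p = 0.00086), and Cd8b1 was also lower (-0.45). Of 19 T cell identity genes tested, 2 were higher and 5 lower, beside 6.43% and 7.5% of all genes tested. Without DN replicate 1 or 2, 3 were lower. The summed level of these genes was 14206 and 14031 CPM in Bcl6+ libraries and 14256 and 14298 CPM in DN libraries.

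Bcl6+ and DN cells both held Tcf7, and the difference between them was small beside that in Bcl6. Tcf7 (ENSMUSG00000000782; minus strand of chromosome 11, from 52252371 to 52283014) had 954 and 864 CPM in Bcl6+, 36.5 and 49.5 CPM in TIM-3+ and 551 and 551 CPM in DN libraries. Bcl6+ cells thus held 1.65 times the DN level (log2 fold change 0.72, SE 0.1, adjusted p = 0.00025, 95% interval 0.5 to 0.94), while the TIM-3+ libraries lay far below both. Slamf6 (ENSMUSG00000015314; plus strand of chromosome 1, from 171917515 to 171953170), a SLAM-family receptor found on the stem-like pool, had 619.8 and 626 CPM in Bcl6+, 26.6 and 39.6 CPM in TIM-3+ and 324 and 371 CPM in DN libraries (log2 fold change 0.84, SE 0.12, adjusted p = 0.00041). Bcl6+ libraries were higher than DN libraries in both genes, without overlap.

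Other regulators were level within narrow intervals. Zeb2, a repressor that promotes effector differentiation, measured 75.3 and 80.02 CPM in Bcl6+ and 82.5 and 71 CPM in DN libraries, with a 95% interval of the log2 fold change of -0.25 to 0.28. The interval was -0.04 to 0.14 for Bhlhe40, -0.18 to 0.07 for Ikzf1 (Ikaros) and -0.14 to 0.2 for Foxp1, a quiescence factor. It was -0.18 to 0.2 for Nfil3 and -0.29 to 0.18 for the receptor-induced factor Nr4a3. Among members of the stem and memory, effector and exhaustion transcription factor lists, these 6 had the intervals closest around 0. Lef1, the close relative of Tcf7, did not pass the test at 79.9 and 70.1 CPM in Bcl6+ and 59.8 and 65.1 CPM in DN libraries (log2 fold change 0.26, 95% interval -0.07 to 0.6), nor did Satb1 (-0.004, -0.33 to 0.33) or Foxo1 (0.28, -0.2 to 0.76).

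Of 22 stem and memory transcription factors, 9 were higher in Bcl6+ cells and 0 lower. Their median log2 fold change was 0.45, beside 0.00386 over all genes tested. Besides Bcl6, whose call only checks the sort, and Tcf7, these were Klf4, Eomes, Myb, Id3, Pou2af1, Bach2 and Tcf12. Myb, which sustains stem-like exhausted cells in mice, measured 72.8 and 73.7 CPM in Bcl6+ libraries, against 39.4 and 37.1 CPM in DN libraries (log2 fold change 0.94, SE 0.16, adjusted p = 0.0014). Eomes, a T-box factor of memory and exhausted cells, measured 118 and 109.9 CPM in Bcl6+ libraries, against 55 and 61.5 CPM in DN libraries (log2 fold change 0.97, SE 0.13, adjusted p = 0.00018). Bach2, a repressor of effector differentiation, measured 142 and 118 CPM in Bcl6+ libraries, against 93.3 and 74.8 CPM in DN libraries (log2 fold change 0.63). In these 3 genes both Bcl6+ libraries lay above both DN libraries. Without DN replicate 1 or DN replicate 2, 5 of these factors were higher; Bach2, Klf4, Id3, Pou2af1 and Tcf12 lost their calls without 1 library or more.

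In the stem-like progenitor list 12 of 19 tested members were higher and 0 lower, at a median of 0.63. Ccr7, the receptor for lymph-node homing, measured 2257 and 2327 CPM in Bcl6+, 139 and 149.6 CPM in TIM-3+ and 1193 and 1184 CPM in DN libraries (log2 fold change 0.95, SE 0.05, adjusted p = 5.2e-08). Cd83, a surface protein of activated lymphocytes, measured 319 and 305 CPM in Bcl6+ libraries, against 137 and 135 CPM in DN libraries (log2 fold change 1.2, SE 0.09, adjusted p = 1.5e-06). Ikzf2, which encodes Helios, measured 422 and 422 CPM in Bcl6+ libraries, against 221 and 221 CPM in DN libraries (log2 fold change 0.93, SE 0.07, adjusted p = 1.6e-06). In each of these genes the Bcl6+ libraries stood above the DN libraries. Members that did not pass included Lef1, Satb1, Tnfsf8, Emb, Il7r and Cxcl10. Fitted on the Bcl6+ and DN libraries alone, 3 members of this list were lower.

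Of 13 follicular helper genes tested, 7 were higher and 2 lower, at a median of 0.62; Bcl6 itself is one of the 7. Cxcr5 (ENSMUSG00000047880; minus strand of chromosome 9, from 44511787 to 44561877), which directs cells to B cell follicles, had 257 and 245 CPM in Bcl6+, 1.14 and 2.57 CPM in TIM-3+ and 53.6 and 54 CPM in DN libraries. Bcl6+ cells held 4.66 times the DN level (log2 fold change 2.22, SE 0.16, adjusted p = 6.9e-07), and the TIM-3+ libraries were close to 0. Its locus overlaps Bcl9l, and the strand used in counting is not given in the sources used here, so reads of overlapping genes may be shared. Cd200 (log2 fold change 0.89, SE 0.1, adjusted p = 5.4e-05), Sh2d1a, which encodes the adaptor SAP (log2 fold change 0.62, SE 0.08, adjusted p = 0.00019), and the coactivator gene Pou2af1 (0.65) were also higher. Tox2, a factor of the same program, measured 11.2 and 6.4 CPM in Bcl6+ libraries, against 2.79 and 1.81 CPM in DN libraries (log2 fold change 1.94, adjusted p = 0.006), a call lost without Bcl6+ replicate 1 or DN replicate 2. Slamf1 (log2 fold change -1.0, SE 0.14, adjusted p = 0.00032) and Asb2 (-1.33, a call lost without Bcl6+ replicate 1, DN replicate 1 or DN replicate 2) went the other way, while Icos (-0.07) did not pass.

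**Figure D2:**
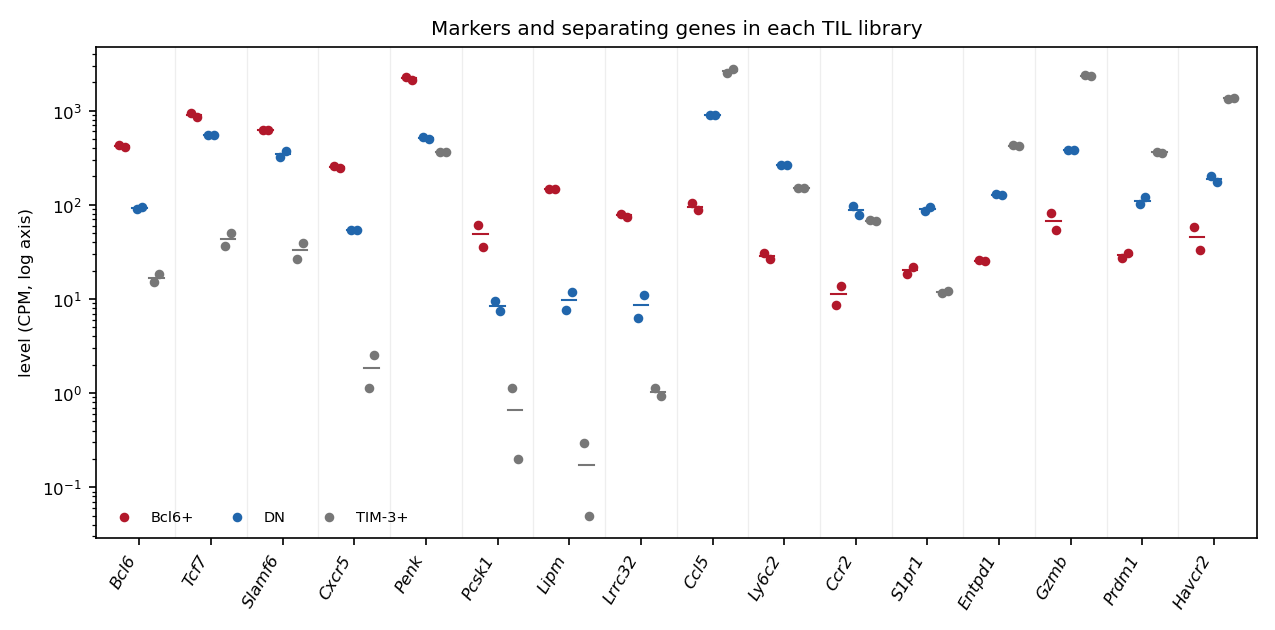
Level in CPM on a log axis of 16 genes in each TIL library; red points are Bcl6+, blue DN and grey TIM-3+ libraries, 2 a group, and short lines are group means. Tcf7 and Slamf6 lie within 2-fold between Bcl6+ and DN libraries and far lower in TIM-3+ libraries, whereas Lipm and Lrrc32 separate Bcl6+ from DN libraries about as widely as Ccl5 and Ly6c2 do in the other direction.

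Penk rose more than 4-fold in Bcl6+ cells. It encodes preproenkephalin, the precursor of the enkephalin opioid peptides (ENSMUSG00000045573; minus strand of chromosome 4, from 4133531 to 4138819). Its level was 2285 and 2136 CPM in Bcl6+, 367 and 366 CPM in TIM-3+ and 519 and 496 CPM in DN libraries. Bcl6+ cells held 4.35 times the DN level (log2 fold change 2.12, SE 0.05, adjusted p = 5e-11), with no overlap, and DN and TIM-3+ libraries lay much closer to each other. Pcsk1, the gene of a convertase that cleaves peptide hormone precursors in endocrine cells, measured 61.3 and 35.9 CPM in Bcl6+, 1.14 and 0.198 CPM in TIM-3+ and 9.42 and 7.49 CPM in DN libraries (log2 fold change 2.52, SE 0.4, adjusted p = 0.00066). Furin, a convertase of the general secretory pathway, was lower at 47.3 and 49.6 CPM in Bcl6+ libraries, against 76.8 and 111 CPM in DN libraries (log2 fold change -0.95, SE 0.16, adjusted p = 0.0013). These were the 3 of 12 genes of neuropeptide processing and opioid receptors expressed highly enough to be tested.

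Lipm, Lrrc32, Dnase1l3 and Igsf3 were among the 15 genes with the largest called increases in Bcl6+ cells. Lipm (ENSMUSG00000056078; plus strand of chromosome 19, from 34100933 to 34122687), of the acid lipase family, had 147 and 145 CPM in Bcl6+, 0.297 and 0.0494 CPM in TIM-3+ and 7.57 and 11.8 CPM in DN libraries. It differed 15.1-fold between Bcl6+ and DN cells (log2 fold change 3.92, SE 0.23, adjusted p = 1.1e-07); its locus overlaps Ankrd22. Lrrc32 (ENSMUSG00000090958; plus strand of chromosome 7, from 98489283 to 98502181) encodes GARP, which docks latent TGF-beta at the cell surface. It had 80.6 and 73.7 CPM in Bcl6+, 1.14 and 0.938 CPM in TIM-3+ and 6.29 and 10.9 CPM in DN libraries (log2 fold change 3.16, SE 0.26, adjusted p = 2.2e-06). Dnase1l3, a secreted DNase, measured 224 and 197 CPM in Bcl6+, 1.98 and 1.78 CPM in TIM-3+ and 32 and 28.8 CPM in DN libraries (log2 fold change 2.79, SE 0.13, adjusted p = 1.9e-08). Igsf3, an immunoglobulin-superfamily membrane protein, measured 479 and 498 CPM in Bcl6+, 7.12 and 11 CPM in TIM-3+ and 79.2 and 93.7 CPM in DN libraries (log2 fold change 2.5, SE 0.13, adjusted p = 5.2e-08). In these 4 genes both TIM-3+ libraries lay below both DN libraries. That Bcl6+ libraries lay above DN libraries without overlap was a condition of the choice of the 15.

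Sdc1, the gene of the heparan sulfate proteoglycan syndecan-1, measured 102 and 134 CPM in Bcl6+, 10.04 and 12.9 CPM in TIM-3+ and 11.4 and 20.7 CPM in DN libraries (log2 fold change 2.88, SE 0.26, adjusted p = 4.9e-06), and its DN and TIM-3+ libraries overlapped. Camk1g, a calmodulin-dependent kinase, had the largest fold change of the 15, at 22.4 and 17.8 CPM in Bcl6+ libraries, against 1.09 and 1.07 CPM in DN libraries (log2 fold change 4.21, SE 0.54, adjusted p = 0.00012). Myom1 (3.49) and Actn2 (2.93) encode proteins of the muscle sarcomere, Cldn10 (2.97) a tight-junction claudin, and Colq (2.51) the collagen tail of acetylcholinesterase. The others were Dthd1 (2.92), Fam160a1 (2.71), the olfactory receptor gene Olfr156 (2.77) and the protamine gene Prm2 (2.5). Olfr156 measured 12.7 and 13.3 CPM in Bcl6+ and 2.32 and 1.49 CPM in DN libraries. Prm2 measured 7.64 and 5.94 CPM in Bcl6+ and 0.899 and 1.49 CPM in DN libraries. Both were low and lost their calls without 1 library or more. Myom1 overlaps Myl12a and Fam160a1 overlaps a predicted gene, so their counts carry the doubt on strand.

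Most cytotoxic genes were lower in Bcl6+ cells. Of 18 granzymes, perforin and effector cytokines tested, 13 were lower and 0 higher, at a median of -1.11. Gzmb (ENSMUSG00000015437; minus strand of chromosome 14, from 56258838 to 56262260), the gene of granzyme B, had 82.3 and 53.3 CPM in Bcl6+, 2391 and 2311 CPM in TIM-3+ and 379 and 379.9 CPM in DN libraries (log2 fold change -2.49, SE 0.13, adjusted p = 5.6e-08). Prf1, the perforin gene, measured 516 and 549.9 CPM in Bcl6+, 6509.7 and 6539 CPM in TIM-3+ and 1186 and 1109.7 CPM in DN libraries (log2 fold change -1.11, SE 0.04, adjusted p = 3.3e-09). Ifng, the interferon-gamma gene, measured 73.5 and 70.001 CPM in Bcl6+, 721 and 716 CPM in TIM-3+ and 221 and 211 CPM in DN libraries (log2 fold change -1.59, SE 0.07, adjusted p = 1.1e-08). In these 3 genes DN libraries lay between Bcl6+ and TIM-3+ libraries. Gzma fell the furthest and was highest in DN cells, at 1.66 and 1.25 CPM in Bcl6+, 13.3 and 15 CPM in TIM-3+ and 15.9 and 16.6 CPM in DN libraries (log2 fold change -3.48, SE 0.35, adjusted p = 1.7e-05). Nkg7, a granule protein, was lower too (log2 fold change -1.23, SE 0.05, adjusted p = 2.5e-09), as was Fasl (log2 fold change -1.11, SE 0.08, adjusted p = 9.8e-07). Tnf (-0.18), Lta (0.34), Il2 (-0.97), Csf2 (-0.3) and Gzmm (-0.78) did not pass. Gzmc, Gzmd, Gzme and Gzmf, which were lower, are close copies that may share reads. The call of Gzmc was lost under DESeq2 and without DN replicate 2.

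Among the 15 largest called decreases, 3 are given here and the rest with their lists. Chn2, which switches off the GTPase Rac, measured 1.66 and 6.03 CPM in Bcl6+, 140.1 and 109.8 CPM in TIM-3+ and 41 and 39.7 CPM in DN libraries (log2 fold change -3.39, SE 0.35, adjusted p = 2.1e-05). Ly6d, of the Ly6 family, measured 0.759 and 0.696 CPM in Bcl6+, 0 and 0.395 CPM in TIM-3+ and 4.83 and 5.21 CPM in DN libraries (log2 fold change -2.78, SE 0.76, adjusted p = 0.027), a call lost without any 1 of the 4 libraries. Ifit1bl1, an Ifit-like gene of the type I interferon list, measured 12.8 and 3.8 CPM in Bcl6+, 31.6 and 35.7 CPM in TIM-3+ and 56.4 and 55.4 CPM in DN libraries (log2 fold change -2.75, SE 0.38, adjusted p = 0.00023). That Bcl6+ libraries lay below DN libraries in all 3 was a condition of the choice of the 15.

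In the granule machinery list, 10 of 20 genes were lower and 1 higher (6 lower without DN replicate 2). Sytl2, which tethers granules for release, measured 17.1 and 18.6 CPM in Bcl6+ libraries, against 71.3 and 92.5 CPM in DN libraries (log2 fold change -2.2, SE 0.15, adjusted p = 5.9e-07). Ctsc, the cathepsin that activates granzymes, measured 169 and 174 CPM in Bcl6+ libraries, against 359 and 359 CPM in DN libraries (log2 fold change -1.07, SE 0.06, adjusted p = 1.6e-07). Serpinb9, which protects killer cells from granzyme B, measured 447 and 435 CPM in Bcl6+ libraries, against 634 and 628 CPM in DN libraries (log2 fold change -0.52, SE 0.05, adjusted p = 1.8e-05). In these 3 genes both Bcl6+ libraries lay below both DN libraries. Rab27a (-0.18), Unc13d (0.21) and Lamp1 (0.03) of the same list did not pass. Stx11, a syntaxin of granule fusion, was higher (log2 fold change 0.94, SE 0.1, adjusted p = 2.3e-05). Of all genes tested, 6.43% were higher and 7.5% lower.

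Ccl3, Ccl4 and Ccl5, chemokines that killer cells release, were lower in Bcl6+ cells. Ccl5 (ENSMUSG00000035042; minus strand of chromosome 11, from 83525778 to 83530518) had 103 and 87.6 CPM in Bcl6+, 2489.7 and 2742 CPM in TIM-3+ and 897 and 893 CPM in DN libraries. The level in Bcl6+ cells was 9.38-fold lower than in DN cells (log2 fold change -3.23, SE 0.08, adjusted p = 3.2e-11). Ccl4 measured 51.4 and 44.7 CPM in Bcl6+, 2103 and 2218 CPM in TIM-3+ and 300.1 and 298 CPM in DN libraries (log2 fold change -2.64, SE 0.07, adjusted p = 5e-11). Ccl3 measured 41.2 and 39.9 CPM in Bcl6+, 2264 and 2310.3 CPM in TIM-3+ and 187 and 202 CPM in DN libraries (log2 fold change -2.26, SE 0.06, adjusted p = 5.2e-11). In all 3 genes the DN libraries stood well above the Bcl6+ libraries and below the TIM-3+ libraries. Of 16 chemokines tested, 4 were lower and 1 higher, at a median of 0.04, although limma on log2(FPKM + 1) called 4 higher. Over all genes tested 7.5% were lower and 6.43% higher, so the share higher was near that of all genes. The one that was higher, Xcl1, attracts cross-presenting dendritic cells and measured 277 and 279 CPM in Bcl6+ libraries, against 192 and 189.6 CPM in DN libraries (log2 fold change 0.54, SE 0.09, adjusted p = 0.00072).

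Receptors for migration divided the groups in both directions. Ccr2, an inflammatory chemokine receptor, measured 8.59 and 13.8 CPM in Bcl6+, 68.8 and 66.7 CPM in TIM-3+ and 95.9 and 78 CPM in DN libraries (log2 fold change -2.95, SE 0.21, adjusted p = 6.7e-07). S1pr1, the sphingosine-1-phosphate receptor that lets T cells leave tissue, measured 18.4 and 21.7 CPM in Bcl6+, 11.6 and 12.2 CPM in TIM-3+ and 86.5 and 93.5 CPM in DN libraries (log2 fold change -2.17, SE 0.17, adjusted p = 1.6e-06). Both were highest in the DN libraries. Cxcr6 (log2 fold change -1.35, SE 0.05, adjusted p = 2.5e-09) was lower too, with TIM-3+ libraries highest. Ccr6 was instead higher in Bcl6+ cells, at 179 and 180.4 CPM in Bcl6+, 0.94 and 2.32 CPM in TIM-3+ and 79.7 and 74.6 CPM in DN libraries (log2 fold change 1.22, SE 0.17, adjusted p = 0.00023), beside Ccr7 and Cxcr5. In all, 4 of 18 receptors of chemokines and egress were higher and 8 lower. Klf2, which drives S1pr1 expression, did not pass at 4.89 and 5.06 CPM in Bcl6+ and 9.7 and 11.8 CPM in DN libraries (log2 fold change -1.11, adjusted p = 0.067).

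Ly6c2 (ENSMUSG00000022584; minus strand of chromosome 15, from 75108158 to 75111970) encodes a surface protein of effector and memory CD8+ T cells. Its level was 30.6 and 26.7 CPM in Bcl6+, 152 and 150.4 CPM in TIM-3+ and 267 and 267 CPM in DN libraries. It was 9.32-fold lower in Bcl6+ than in DN cells (log2 fold change -3.22, SE 0.11, adjusted p = 4.1e-10), and the DN libraries exceeded the TIM-3+ libraries. Reads may be shared with Ly6c1, its near-identical copy. Ly6a, which encodes Sca-1, was lower as well (log2 fold change -1.22, SE 0.11, adjusted p = 5.5e-06). Itgb7, a subunit of gut-homing integrins, was highest in DN cells, at 65.3 and 91.4 CPM in Bcl6+, 53.7 and 51.6 CPM in TIM-3+ and 187 and 173 CPM in DN libraries (log2 fold change -1.2, SE 0.14, adjusted p = 7e-05). Of 19 integrin and adhesion genes tested, 4 were higher and 8 lower, beside 6.43% and 7.5% of all genes tested. Itgb8, which helps to activate latent TGF-beta, was higher at 107 and 121 CPM in Bcl6+ libraries, against 22.4 and 27.5 CPM in DN libraries (log2 fold change 2.19, SE 0.17, adjusted p = 1.6e-06).

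Of 15 effector transcription factors, 7 were lower and 3 higher. Prdm1 (ENSMUSG00000038151; minus strand of chromosome 10, from 44437177 to 44528501) had 27 and 31 CPM in Bcl6+, 364 and 354 CPM in TIM-3+ and 102 and 119.6 CPM in DN libraries (log2 fold change -1.93, SE 0.11, adjusted p = 9.2e-08). Id2, which blocks E proteins, measured 289.97 and 309.9 CPM in Bcl6+, 1424 and 1469.7 CPM in TIM-3+ and 674 and 649 CPM in DN libraries (log2 fold change -1.14, SE 0.06, adjusted p = 2.8e-08). Tbx21, which encodes T-bet, measured 135 and 138 CPM in Bcl6+, 366 and 355 CPM in TIM-3+ and 267 and 248 CPM in DN libraries (log2 fold change -0.92, SE 0.08, adjusted p = 2.9e-06). For each the order was Bcl6+ lowest and TIM-3+ highest, with no overlap. Runx3 (log2 fold change -0.69, SE 0.08, adjusted p = 5.4e-05), Klf6 (log2 fold change -0.5, SE 0.05, adjusted p = 1.3e-05) and Zbtb32 (-0.72) were also lower. Rora (log2 fold change 0.78, SE 0.11, adjusted p = 0.00019), Hif1a (log2 fold change 0.54, SE 0.05, adjusted p = 1.6e-05) and Irf8 (0.27) were higher; the calls of Irf8 and of Hopx, which was lower at -1.99, were lost without 1 library or more.

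Among transcription factors of exhaustion, 6 of 14 were higher and 2 lower. Tox, which establishes the exhausted state, was high in all groups, at 998 and 989 CPM in Bcl6+, 1221 and 1221 CPM in TIM-3+ and 760.02 and 806 CPM in DN libraries (log2 fold change 0.34, SE 0.05, adjusted p = 0.00041). Egr2, induced by receptor signals, measured 143 and 149.7 CPM in Bcl6+, 49.3 and 43.7 CPM in TIM-3+ and 49.5 and 56 CPM in DN libraries (log2 fold change 1.47, SE 0.13, adjusted p = 3.9e-06). Bcl6+ libraries were the highest of the 3 groups in Egr2, and TIM-3+ libraries the highest in Tox. Irf4, which follows the strength of receptor signals, measured 48.8 and 63.6 CPM in Bcl6+, 196 and 232 CPM in TIM-3+ and 124 and 130.2 CPM in DN libraries and was lower in Bcl6+ cells (log2 fold change -1.18, SE 0.13, adjusted p = 4e-05). Batf (-0.18, -0.4 to 0.03), Nfatc1 (-0.27, -0.5 to -0.05) and Nfatc2 (0.01, -0.3 to 0.32) did not pass.

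**Figure D3:**
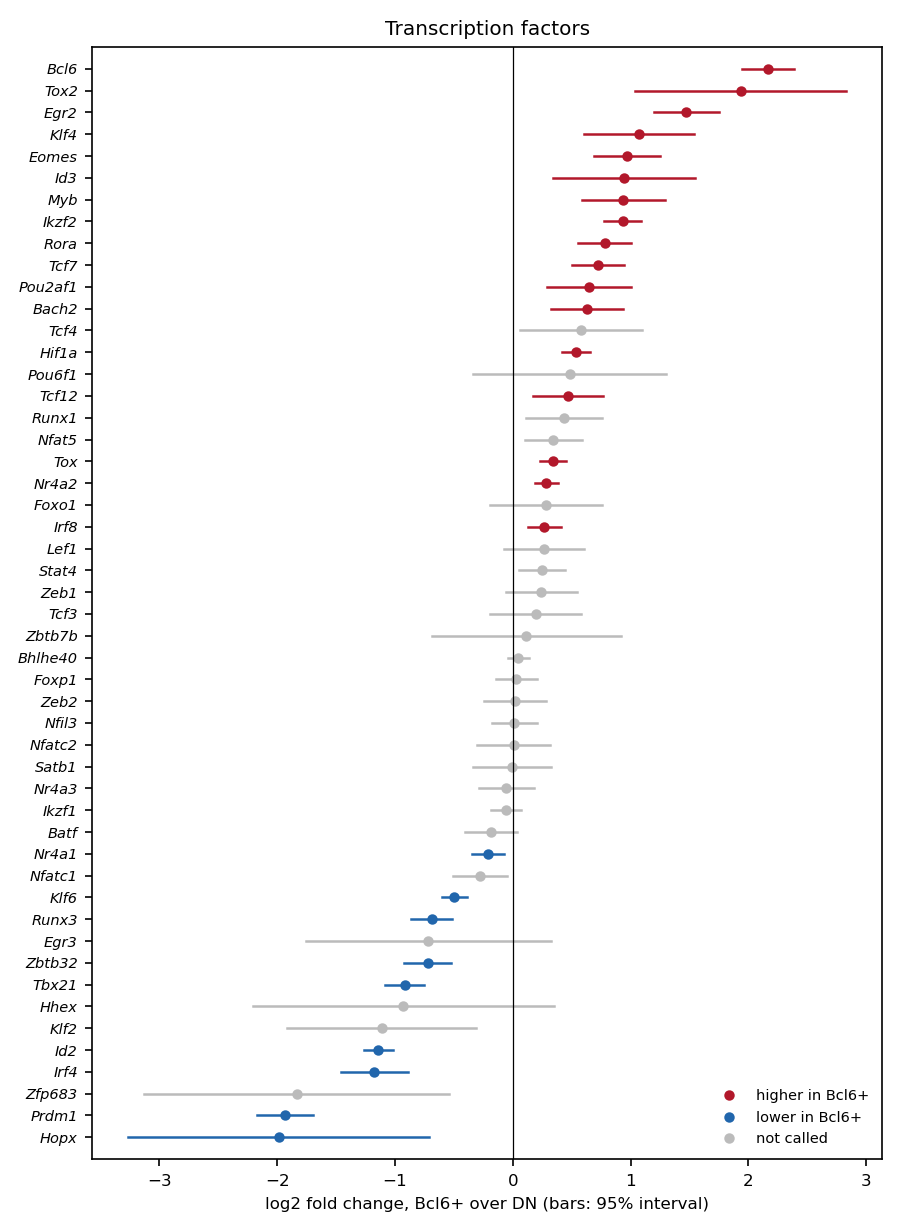
Log2 fold change of Bcl6+ over DN TILs (horizontal axis) with its 95% interval for the transcription factors of the stem and memory, effector and exhaustion lists; red marks genes called higher, blue lower and grey not called. Bcl6 at 2.17 and Tox2 at 1.94 stand at one end, and Prdm1 at -1.93 and Hopx at -1.99 at the other. Zeb2, Bhlhe40 and Ikzf1 lie in the middle with narrow intervals.

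Of 19 surface and secreted products of terminal exhaustion, 11 were lower and 4 higher, at a median of -1.07. Entpd1 (ENSMUSG00000048120; plus strand of chromosome 19, from 40612366 to 40741602) encodes CD39, the ectoenzyme that degrades extracellular ATP. Its level was 25.6 and 25.4 CPM in Bcl6+, 429 and 416 CPM in TIM-3+ and 129.9 and 127 CPM in DN libraries. It was 5.03-fold lower in Bcl6+ than in DN cells (log2 fold change -2.33, SE 0.09, adjusted p = 2.4e-09), with no overlap. Cd244a, the receptor 2B4, measured 15.7 and 12.3 CPM in Bcl6+, 138 and 143 CPM in TIM-3+ and 54.4 and 59.4 CPM in DN libraries (log2 fold change -2.02, SE 0.15, adjusted p = 1.1e-06); its locus overlaps Ly9. Pdcd1, the gene of PD-1, did not pass, at 1814 and 1743 CPM in Bcl6+ and 1723 and 1696 CPM in DN libraries (log2 fold change 0.06, 95% interval -0.04 to 0.15), and Tnfrsf9 did not either (0.14, 0.04 to 0.24). The members that were higher were Rgs16 (log2 fold change 0.75, SE 0.06, adjusted p = 3.3e-06), Alcam (0.79), Cd101 (0.52) and Lag3 (0.14). Cd101 and Lag3 lost their calls without Bcl6+ replicate 2, DN replicate 1 or DN replicate 2, and fewer of the list were then higher. Lag3 also lost its call with upper-quartile factors, limma on log2(FPKM + 1) or log2(FPKM + 0.1), no filter or a replicate block. Its call was lost too without TIM-3+ replicate 1 or 2, and in the fit of the Bcl6+ and DN libraries alone.

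Inhibitory receptors went both ways: of 17 tested, 4 were higher and 6 lower. Tigit measured 1442 and 1427 CPM in Bcl6+ and 965 and 1061 CPM in DN libraries (log2 fold change 0.5, SE 0.05, adjusted p = 1.6e-05). Cd72, which overlaps Tesk1, measured 164 and 167 CPM in Bcl6+ and 56.9 and 50.3 CPM in DN libraries (log2 fold change 1.63, SE 0.15, adjusted p = 5.4e-06). Both were higher in Bcl6+ cells without overlap. Cd200r4 (-2.39), Lilrb4a (-1.07), Vsir (log2 fold change -0.55, SE 0.08, adjusted p = 0.00021) and Ctla4 (log2 fold change -0.35, SE 0.06, adjusted p = 0.0015) were lower. Btla (0.47) and Cd160 (-0.17) did not pass.

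Genes induced by type I interferon, the antiviral cytokine family, were lower in Bcl6+ cells: 25 of 35 tested were lower and 0 higher, at a median of -1.0. Without DN replicate 1, 16 were lower. Ifit3, an antiviral protein, measured 3.46 and 3.8 CPM in Bcl6+, 5.94 and 6.27 CPM in TIM-3+ and 32.7 and 33.3 CPM in DN libraries (log2 fold change -3.18, SE 0.28, adjusted p = 5e-06). Ifit1 measured 8.87 and 11.4 CPM in Bcl6+, 13.1 and 9.09 CPM in TIM-3+ and 36.4 and 32.1 CPM in DN libraries (log2 fold change -1.76, SE 0.27, adjusted p = 0.0005). Oas3, a sensor of double-stranded RNA, measured 27.5 and 30.4 CPM in Bcl6+, 30.7 and 37.6 CPM in TIM-3+ and 67.7 and 78.1 CPM in DN libraries (log2 fold change -1.33, SE 0.17, adjusted p = 0.00011). In all 3 the DN libraries stood above both other groups. Ifi208, of the Ifi200 family, measured 15.9 and 12.4 CPM in Bcl6+, 65.9 and 65.9 CPM in TIM-3+ and 89.4 and 83.1 CPM in DN libraries (log2 fold change -2.6, SE 0.16, adjusted p = 1.9e-07). Its close relative Ifi213, with which it may share reads, measured 12.1 and 3.99 CPM in Bcl6+, 39.3 and 32.6 CPM in TIM-3+ and 51.7 and 54.2 CPM in DN libraries (log2 fold change -2.72, SE 0.36, adjusted p = 0.00016). Ifit3 may likewise share reads with Ifit3b. The 10 that did not pass included Irf7 (-0.46), Stat2 (-0.49) and Oasl2 (-0.43). Summed over 39 listed members the level was 1155 and 1100.4 CPM in Bcl6+, 1799 and 1779 CPM in TIM-3+ and 1976 and 2027 CPM in DN libraries.

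Promoter stretches of 5 of these genes are shown because most of the lower genes hold the same letters there. The letters GAAANNGAAA, the core of the interferon-stimulated response element, were searched on both strands in the 250 bases before each RefSeq gene start (GRCm38.p6). They were found in 13 of 19 (68.4%) type I interferon genes that were lower and had a promoter in the table, and in 3 of 9 (33.3%) that were not called. Of all genes tested with a promoter, 272 of 7961 (3.42%) held them, as did 936 of 27025 (3.46%) over the whole RefSeq set. Each stretch below is read 5′ to 3′ on the gene's strand, with the matches in capitals; a match is a run of letters, not a measured binding site.
Ifit3 (chr19:34583348-34583441, plus strand): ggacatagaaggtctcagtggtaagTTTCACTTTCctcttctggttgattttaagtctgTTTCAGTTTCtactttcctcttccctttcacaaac
Ifit1 (chr19:34640760-34640838, plus strand): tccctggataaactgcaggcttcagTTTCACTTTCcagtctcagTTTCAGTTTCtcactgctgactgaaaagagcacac
Ifi208 (chr1:173673582-173673641, plus strand): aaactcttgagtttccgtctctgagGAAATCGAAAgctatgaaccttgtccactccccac
Rsad2 (chr12:26456538-26456597, minus strand): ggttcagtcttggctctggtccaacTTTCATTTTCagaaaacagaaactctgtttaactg
Isg15 (chr4:156200850-156200921, minus strand): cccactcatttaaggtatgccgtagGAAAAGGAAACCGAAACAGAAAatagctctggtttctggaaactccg
The stretch of Ifit3 occurs base for base before Ifit3b, and that of Ifi208 before Ifi213, so both copies of each pair carry the same flanks. In Isg15 3 matches run into one another, whereas in Ifit3 and Ifit1 2 matches stand apart and in Rsad2 and Ifi208 there is 1. Isg15, a ubiquitin-like protein, measured 3.08 and 3.2 CPM in Bcl6+, 7.97 and 7.95 CPM in TIM-3+ and 9.04 and 9.91 CPM in DN libraries (log2 fold change -1.59, SE 0.37, adjusted p = 0.011). Rsad2, an antiviral enzyme, measured 7.97 and 3.8 CPM in Bcl6+, 11.5 and 6.37 CPM in TIM-3+ and 16.8 and 19.3 CPM in DN libraries (log2 fold change -1.61, SE 0.41, adjusted p = 0.016). Both lost their calls without DN replicate 1 or DN replicate 2. Over all genes lower in Bcl6+ cells the letters were found in 45 of 585 (7.69%), and over all genes higher in 18 of 495 (3.64%). The 45 include the 13 type I interferon genes given above, so this share is not separate from theirs.

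**Figure D4:**
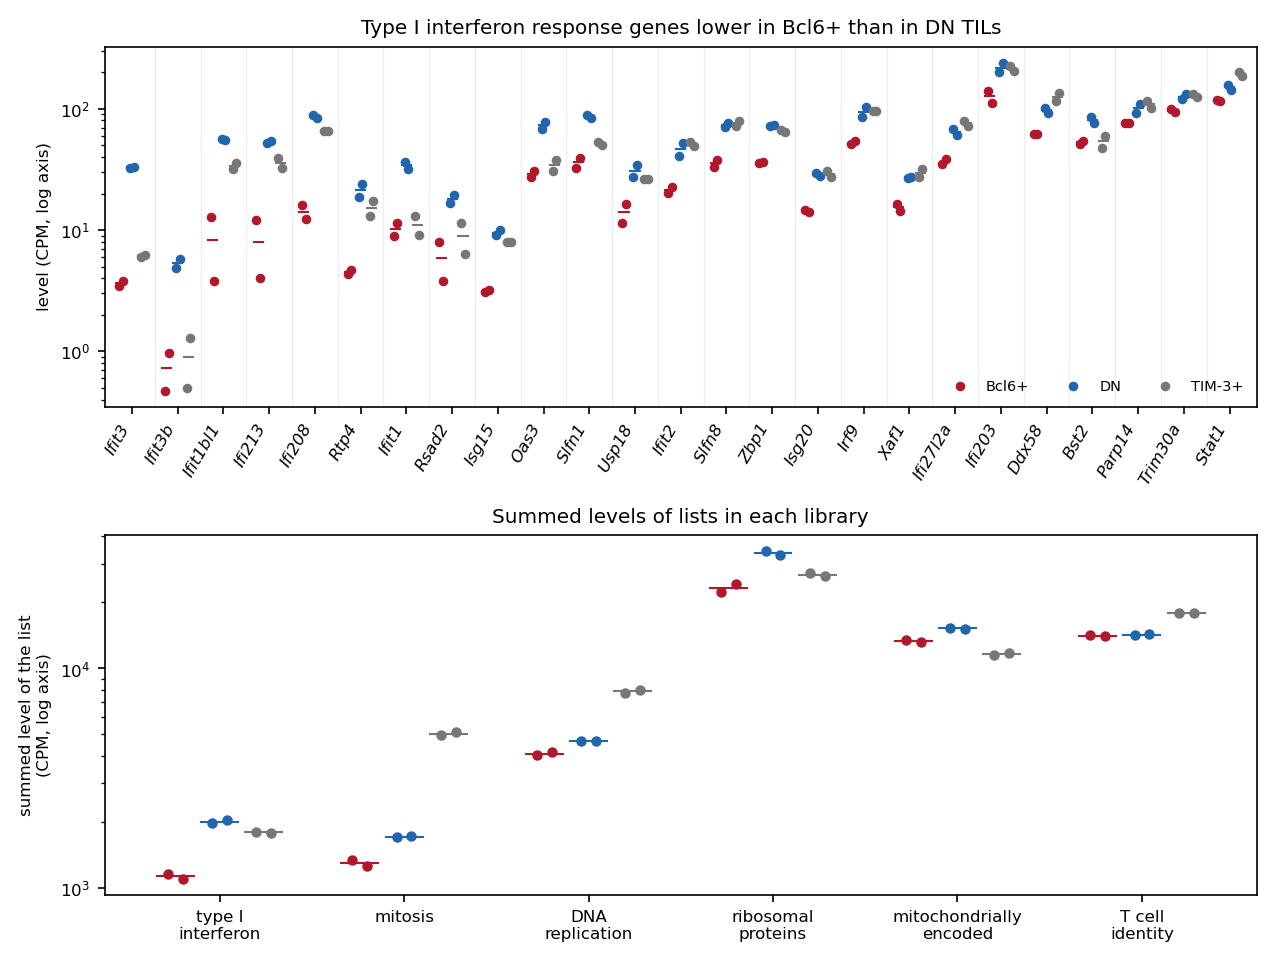
Upper panel, level in CPM on a log axis of the 25 type I interferon response genes called lower in Bcl6+ than in DN TILs, in each library; lower panel, summed CPM of 6 gene lists in each library on a log axis. Red marks Bcl6+, blue DN and grey TIM-3+ libraries, and lines are group means. That Bcl6+ libraries lie below DN libraries in the upper panel follows from this choice of genes. The 10 tested members that were not called are not shown. Mitosis sums are higher in TIM-3+ than in the other groups.

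Of 30 interferon-gamma response genes, 19 were lower and 1 higher, at a median of -0.59 (11 lower without DN replicate 2). Gbp7, a guanylate-binding protein of cell-intrinsic defence, measured 79.1 and 84.6 CPM in Bcl6+, 261 and 281 CPM in TIM-3+ and 174 and 189 CPM in DN libraries (log2 fold change -1.15, SE 0.09, adjusted p = 2e-06). Gbp3, of the same family, measured 24.2 and 21.7 CPM in Bcl6+, 103 and 98.1 CPM in TIM-3+ and 58 and 61.6 CPM in DN libraries (log2 fold change -1.38, SE 0.14, adjusted p = 1.6e-05). In both Gbp genes TIM-3+ libraries were highest and Bcl6+ libraries lowest. H2-K1, a class I MHC gene, fell by 0.37 on the log2 scale (SE 0.03, adjusted p = 3.5e-06). The letters GAAANNGAAA stood before 12 of 22 (54.5%) tested members with a promoter in the table. Of the receptors for these cytokines, Ifngr1 measured 358 and 343 CPM in Bcl6+, 718 and 699 CPM in TIM-3+ and 1003 and 934 CPM in DN libraries and was lower in Bcl6+ cells (log2 fold change -1.47, SE 0.06, adjusted p = 3.6e-09). Ifnar1 was higher (log2 fold change 0.39, SE 0.07, adjusted p = 0.0017), and Ifngr2 (-0.13) and Ifnar2 (0.14) did not pass.

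Of 78 cytosolic ribosomal protein genes, a family chosen after its values were seen, 73 were lower and 0 higher. Their median was -0.56, and all 78 fold changes were negative, from -1.24 to -0.27. Summed, they took 22332 and 24329.8 CPM in Bcl6+, 27211 and 26364 CPM in TIM-3+ and 34172 and 32865 CPM in DN libraries, so the 2 Bcl6+ libraries were lowest and the 2 DN libraries highest. The number lower was 61 without DN replicate 1. Copies of these genes elsewhere in the genome can share their reads, which makes single members uncertain.

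Gene length moved with these calls. Tested genes were put into 4 classes of equal size by the length behind the deposited FPKM. In the shortest class, with a median of 2082 bases, 107 genes were higher and 270 lower. Without its ribosomal protein genes, 107 genes of this class were higher and 212 lower. In the longest class, with a median of 9772 bases, 228 were higher and 138 lower. The median log2 fold change was -0.07 in the shortest and 0.04 in the longest class. Ribosomal protein genes had a median length of 1933 bases, granzyme and cytokine genes 1475 bases, type I interferon genes 4507 bases and stem-like genes 5137 bases, against 4751 bases over all tested. The part of length in these results was not tested.

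Cytoskeletal and calcium-binding genes were lower as well. Of 19 S100, annexin and galectin genes and their companions, 12 were lower and 0 higher, at a median of -0.34. S100a6, a calcium-binding protein gene, measured 59 and 53.5 CPM in Bcl6+, 301 and 299 CPM in TIM-3+ and 169 and 165 CPM in DN libraries (log2 fold change -1.57, SE 0.09, adjusted p = 1e-07). Vim, which encodes vimentin, measured 102 and 100.1 CPM in Bcl6+, 370.03 and 335 CPM in TIM-3+ and 218 and 198 CPM in DN libraries (log2 fold change -1.04, SE 0.09, adjusted p = 2.7e-06). Anxa6, an annexin gene, measured 467 and 482 CPM in Bcl6+, 1418 and 1460 CPM in TIM-3+ and 896 and 934 CPM in DN libraries (log2 fold change -0.95, SE 0.05, adjusted p = 6.5e-08). In all 3 genes Bcl6+ libraries were lowest and TIM-3+ libraries highest. Of the list, 8 were lower without DN replicate 1. Anxa2 (0.05, -0.05 to 0.15) and Capg (0.01, -0.13 to 0.15) did not pass.

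Part of the cell cycle genes were lower. Of 40 mitosis genes 15 were lower and 1, Kif15, higher, at a median of -0.55; Kif15 lost its call under limma and without any 1 of the 4 libraries. Of 42 DNA replication genes 7 were lower and 0 higher, at -0.23. Top2a, a topoisomerase gene, measured 145 and 148 CPM in Bcl6+, 572 and 607 CPM in TIM-3+ and 193 and 194 CPM in DN libraries (log2 fold change -0.4, SE 0.07, adjusted p = 0.0015). Ccnb2, a mitotic cyclin gene, measured 41.9 and 39.9 CPM in Bcl6+, 149 and 144 CPM in TIM-3+ and 68.7 and 67.4 CPM in DN libraries (log2 fold change -0.73, SE 0.12, adjusted p = 0.00074). The summed level of mitosis genes was 1340.4 and 1257 CPM in Bcl6+, 4985 and 5117 CPM in TIM-3+ and 1697 and 1725 CPM in DN libraries, so both groups stood far below TIM-3+ cells. Mitosis genes that were lower numbered 8 without DN replicate 1 or 2 and 9 under TPM scaling. Rbl2, a pocket protein of resting cells that overlaps Aktip, was higher (log2 fold change 0.71, SE 0.07, adjusted p = 6.4e-06). In the list of quiescence and G1 control, 2 of 30 were higher, a share near the 6.43% of all genes tested. Another 5 were lower, beside 7.5% of all genes tested, and fewer were lower without DN replicate 1.

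Of 24 glycolysis genes 1 was higher and 3 lower, together a share near the 13.9% of all genes. Slc2a3, a glucose transporter gene, measured 277 and 307 CPM in Bcl6+ libraries, against 444 and 408 CPM in DN libraries (log2 fold change -0.54, SE 0.08, adjusted p = 0.00024), and Gapdh did not pass (0.11, -0.11 to 0.33). Of 25 genes of sterol and lipid synthesis 1 was higher and 0 lower, the one being the desaturase gene Scd2 (log2 fold change 0.58, SE 0.07, adjusted p = 0.0001).

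**Figure D5:**
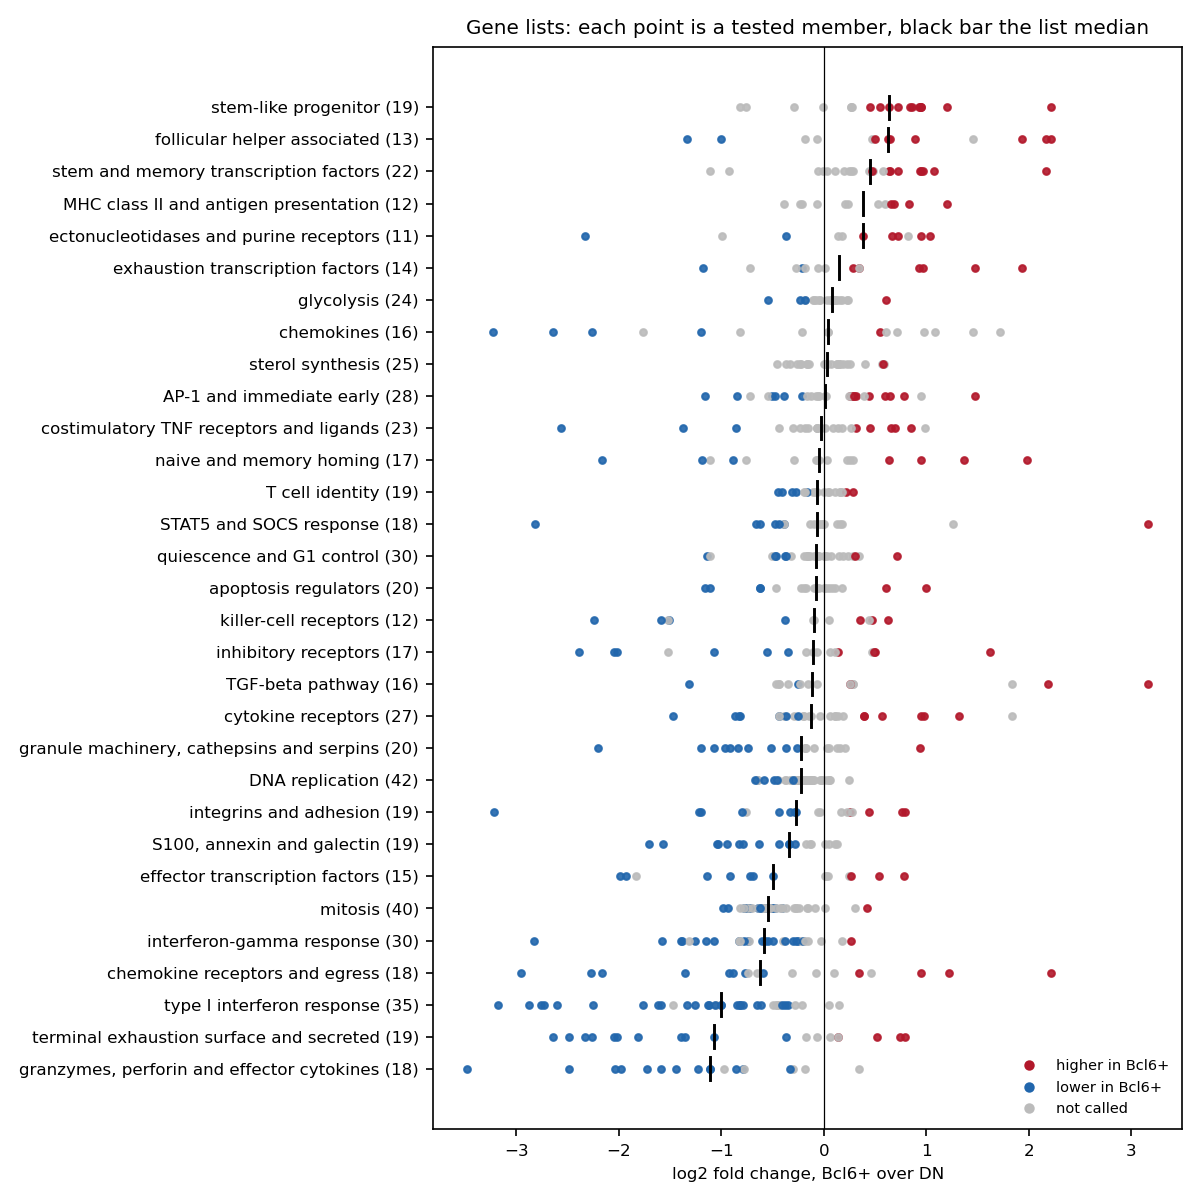
Log2 fold change of Bcl6+ over DN TILs for every tested member of 31 gene lists, ordered by list median (black bars), with the number tested in brackets. Red points are called higher, blue lower and grey not called. Medians run from 0.63 for the stem-like list to -1.11 for granzymes, perforin and cytokines, and most lists between them hold calls in both directions.

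Of 27 genes of the cytokine receptor list, 6 were higher and 7 lower, beside 6.43% and 7.5% of all genes tested. Il21r, the IL-21 receptor gene, measured 891 and 928 CPM in Bcl6+, 592 and 627 CPM in TIM-3+ and 476 and 465 CPM in DN libraries (log2 fold change 0.95, SE 0.06, adjusted p = 1.6e-07). Il10ra, of the IL-10 receptor, measured 668 and 701 CPM in Bcl6+, 609.7 and 618 CPM in TIM-3+ and 339.9 and 357 CPM in DN libraries (log2 fold change 0.97, SE 0.06, adjusted p = 1.9e-07). Il1r2, the gene of a decoy receptor for IL-1, measured 396 and 342 CPM in Bcl6+, 94.1 and 91 CPM in TIM-3+ and 162 and 134 CPM in DN libraries (log2 fold change 1.32, SE 0.1, adjusted p = 1.9e-06). In Il21r and Il10ra the DN libraries were the lowest of the 3 groups. Il2rb, the IL-2 and IL-15 receptor beta chain, was lower (log2 fold change -0.44, SE 0.04, adjusted p = 2.4e-06), and Il7r did not pass (-0.3, -0.51 to -0.08). Cish, a feedback inhibitor induced through STAT5, measured 6.07 and 5.29 CPM in Bcl6+, 65.1 and 61.3 CPM in TIM-3+ and 38.3 and 41.8 CPM in DN libraries (log2 fold change -2.82, SE 0.19, adjusted p = 3.8e-07). Of the 18 STAT5 and SOCS genes tested, 6 were lower and 1, Lrrc32, higher, the share higher being near that of all genes tested. Socs1 (0.18), Pim1 (0.16), Myc (-0.004) and Il2ra (-0.39) did not pass.

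Early genes of receptor signalling divided. Of 28 AP-1 and immediate early genes, 9 were higher and 6 lower (5 higher without DN replicate 2). Fos measured 1163 and 1135 CPM in Bcl6+ libraries, against 732 and 732 CPM in DN libraries (log2 fold change 0.65, SE 0.05, adjusted p = 2.1e-06). Among the phosphatases that restrain MAP kinases, Dusp1 (log2 fold change 0.6, SE 0.04, adjusted p = 3.8e-07, overlapping Ergic1) and Dusp4 (log2 fold change 0.78, SE 0.07, adjusted p = 4.9e-06) were higher, while Dusp5 (log2 fold change -1.16, SE 0.17, adjusted p = 0.00041) and Dusp2 (log2 fold change -0.84, SE 0.1, adjusted p = 6.7e-05) were lower. Junb (-0.08, -0.17 to 0.01) and Egr1 (-0.05, -0.2 to 0.1) did not pass. Of all genes tested, 6.43% were higher and 7.5% lower.

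Of 11 ectonucleotidases and purine receptors, 5 were higher and 2 lower, beside 6.43% and 7.5% of all genes tested. Nt5e, the gene of the adenosine-forming enzyme CD73, measured 104 and 86.8 CPM in Bcl6+, 3.91 and 10.02 CPM in TIM-3+ and 52.9 and 40.4 CPM in DN libraries (log2 fold change 1.04, SE 0.28, adjusted p = 0.024). The higher calls of this list, Nt5e, P2rx4, Enpp2, Art2b and Slc29a1, were all lost without DN replicate 1. Of 12 killer-cell receptor genes, 3 were higher and 4 lower (2 lower without Bcl6+ replicate 2 or DN replicate 2). Cd7 was highest in DN cells, at 20.1 and 22.3 CPM in Bcl6+, 30.6 and 29 CPM in TIM-3+ and 60.5 and 66.5 CPM in DN libraries (log2 fold change -1.58, SE 0.17, adjusted p = 2.4e-05). Klrk1, which encodes NKG2D, was higher in Bcl6+ cells (log2 fold change 0.35, SE 0.06, adjusted p = 0.00083).

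Of 23 costimulatory receptors and ligands, 5 were higher and 3 lower (3 higher without DN replicate 1 or 2). Cd226, which competes with TIGIT for ligands, was lower at 64.4 and 43.6 CPM in Bcl6+, 217 and 227 CPM in TIM-3+ and 133 and 147 CPM in DN libraries (log2 fold change -1.37, SE 0.15, adjusted p = 2.9e-05). Tnfsf4, the OX40 ligand gene, was higher at 156 and 151 CPM in Bcl6+ libraries, against 93.9 and 96 CPM in DN libraries (log2 fold change 0.7, SE 0.1, adjusted p = 0.00039). Among apoptosis regulators, 2 of 20 were higher and 4 lower, beside 6.43% and 7.5% of all genes tested. Fewer were lower without DN replicate 2. Fas, a death receptor gene, was higher at 74.7 and 80.3 CPM in Bcl6+ libraries, against 39.98 and 37.5 CPM in DN libraries (log2 fold change 1.0, SE 0.16, adjusted p = 0.00065). Bcl2, the survival gene, was lower (log2 fold change -0.62, SE 0.12, adjusted p = 0.0039, a call lost without DN replicate 2). Other genes of cell death went both ways, as Pmaip1 was higher and Bcl2l11 and Tnfsf10 were lower. The call of Bcl2l11 was lost under TPM scaling and without Bcl6+ replicate 1 or DN replicate 2. In the TGF-beta list 3 of 16 were higher, namely Lrrc32, Itgb8 and Itgav, and 2 were lower, Smad3 and Tgfbr2. The calls of Itgav, Smad3 and Tgfbr2 were lost without DN replicate 1. Of 17 naive and memory homing genes, 4 were higher (Ccr7, Nsg2, Actn1 and Bach2) and 3 lower (S1pr1, S1pr4 and Klf3). Klf3 lost its call under limma and without Bcl6+ replicate 1, DN replicate 1 or DN replicate 2, and Bach2 without Bcl6+ replicate 1 or DN replicate 2.

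Markers of other cell types were mostly low, some moved with the groups, and none of those listed was at 0 in all 4 libraries. Of 12 tested markers of macrophages and monocytes 5 were higher in Bcl6+ cells and 0 lower. C1qa, of complement, measured 10.2 and 10.3 CPM in Bcl6+, 3.27 and 3.01 CPM in TIM-3+ and 2.46 and 2.19 CPM in DN libraries (log2 fold change 2.14, SE 0.43, adjusted p = 0.0037). Cd68 measured 126 and 94.6 CPM in Bcl6+, 21.6 and 18.2 CPM in TIM-3+ and 58 and 56 CPM in DN libraries (log2 fold change 0.95, SE 0.16, adjusted p = 0.0011). The others were Apoe (1.13), C1qb (1.34) and Csf1r (1.18). Without DN replicate 1 or 2, 2 were higher. Lyz2 (0.45) and Adgre1 (0.9) did not pass. Summed over all 18 markers the level was 985 and 909 CPM in Bcl6+, 1589.8 and 1579 CPM in TIM-3+ and 849 and 865 CPM in DN libraries. Spp1, which is not specific to these cells, gave most of it, at 629 and 586 CPM in Bcl6+, 1498 and 1507 CPM in TIM-3+ and 659 and 667 CPM in DN libraries. Cd74, an MHC class II chaperone, was higher in Bcl6+ cells (log2 fold change 0.83, SE 0.07, adjusted p = 4.4e-06), while H2-Aa (-0.21) and H2-Ab1 (-0.07) did not pass. Of 12 genes of class II presentation 4 were higher, and 2 without DN replicate 1 or 2.

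Some other markers were lower in Bcl6+ cells and some higher. Of 7 dendritic cell markers tested, 2 were lower, Siglech and Xcr1, and 1, Zbtb46, was higher. Zbtb46 measured 31 and 28.4 CPM in Bcl6+ and 13 and 16.5 CPM in DN libraries. Its call was lost without Bcl6+ replicate 1, DN replicate 1 or DN replicate 2. Siglech, of plasmacytoid dendritic cells, which are known as strong makers of type I interferon, measured 2.99 and 3.85 CPM in Bcl6+ libraries, against 21.2 and 18.2 CPM in DN libraries (log2 fold change -2.52, SE 0.73, adjusted p = 0.035; not called by DESeq2, nor without any 1 of the 4 libraries). Cd4 measured 2.52 and 3.9 CPM in Bcl6+ libraries, against 11.4 and 9.86 CPM in DN libraries (log2 fold change -1.72, SE 0.43, adjusted p = 0.016). Cd40lg, of CD4+ T cells, measured 1.14 and 1.53 CPM in Bcl6+ libraries, against 8 and 7.86 CPM in DN libraries (log2 fold change -2.56, SE 0.52, adjusted p = 0.0043). The calls of Cd4, Cd40lg and Xcr1, of cross-presenting dendritic cells (-1.23), were lost without DN replicate 1. The sum of B cell markers was 23.8 and 19.6 CPM in Bcl6+ and 28.1 and 27.5 CPM in DN libraries. In DN libraries this was mostly Spib, which did not pass. Spib measured 4.84 and 4.69 CPM in Bcl6+ and 15.4 and 15.1 CPM in DN libraries. Ebf1, too low to test, went the other way, at 6.41 and 5.75 CPM in Bcl6+ and 0.331 and 0 CPM in DN libraries. Dendritic cell markers summed to 455 and 505 CPM in Bcl6+ and 472 and 458 CPM in DN libraries. This sum was mostly Cst3, at 397 and 428 CPM in Bcl6+ and 372 and 365 CPM in DN libraries. It therefore tells little of the other dendritic cell markers. Markers of CD4+ and regulatory T cells summed to 560.3 and 530.1 CPM in Bcl6+ and 699.5 and 713 CPM in DN libraries. NK cell markers summed to 349 and 336 CPM in Bcl6+ and 247 and 246 CPM in DN libraries. The NK sum was mostly Klre1 (224 and 217 CPM in Bcl6+ and 165 and 154 CPM in DN libraries) and Eomes, while Gzma, also on that list, was lower in Bcl6+ cells. The CD4+ and regulatory T cell sum was mostly Ctla4, at 479.99 and 452 CPM in Bcl6+ and 601 and 584 CPM in DN libraries. Erythroid markers summed to 44.5 and 48.5 CPM in Bcl6+ and 77.8 and 74.3 CPM in DN libraries. Neutrophil markers summed to 18.4 and 18.1 CPM in Bcl6+ and 2.74 and 2.14 CPM in DN libraries. Stromal and endothelial markers summed to 91.8 and 118 CPM in Bcl6+ and 91.4 and 103 CPM in DN libraries. In the Bcl6+ libraries the neutrophil sum was mostly Mmp9, a matrix protease gene, at 13.2 and 16.5 CPM in Bcl6+ and 1.66 and 0.93 CPM in DN libraries (log2 fold change 3.51, SE 0.69, adjusted p = 0.0033, a call lost without DN replicate 2), and the stromal sums overlapped. Markers of lymphoma and thymocytes summed to 284 and 282 CPM in Bcl6+ and 385 and 365 CPM in DN libraries. This was mostly Themis, the only member called, at 202 and 206 CPM in Bcl6+ and 308 and 298 CPM in DN libraries. Cd24a went the other way without passing, at 4.7 and 5.38 CPM in Bcl6+ and 2.6 and 1.86 CPM in DN libraries. The part of these markers in the interferon and chemokine results was not tested.

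The genes that separate Bcl6+ from DN TILs were then read in the OT-I experiment, which shares no library with the TILs. Bcl6 measured 94.2 and 67.6 CPM in Bcl6-overexpressing cells and 4.11 and 3.84 CPM in their controls (log2 fold change 4.34, SE 0.26, adjusted p = 2e-11). In that experiment 4720 of 9669 genes were called (48.8%), 25.4% higher and 23.4% lower. Of 547 genes that were higher in Bcl6+ TILs and tested there, 131 (23.9%) were higher and 123 (22.5%) lower with Bcl6 overexpression, both near the background. Of 721 genes lower in Bcl6+ TILs, 235 (32.6%) were higher and 222 (30.8%) lower.

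Genes of the stem-like and effector lists moved in this experiment as follows. Cxcr5 measured 38.5 and 34.2 CPM in Bcl6-overexpressing and 2.33 and 1.89 CPM in control cells (log2 fold change 4.1, SE 0.3, adjusted p = 5.6e-10). Tcf7 measured 269 and 272 CPM in Bcl6-overexpressing and 76.3 and 77.8 CPM in control cells (log2 fold change 1.81, SE 0.17, adjusted p = 2.4e-08). The log2 fold changes that follow are of Bcl6-overexpressing over control cells. Slamf6 (0.91), Id3 (3.74) and Lrrc32 (2.29) were higher too. Entpd1 (-1.64), Havcr2 (-1.85), Prdm1 (-1.36), Gzmb (-1.13), Ccr2 (-2.17) and S1pr1 (-0.88) were lower. Penk did not pass, at 231 and 213 CPM in Bcl6-overexpressing and 190.4 and 139 CPM in control cells (log2 fold change 0.43, SE 0.18, adjusted p = 0.055). Ccl5 went the opposite way to the TILs, at 2494 and 1628 CPM in Bcl6-overexpressing and 195 and 187 CPM in control cells (log2 fold change 3.43, SE 0.21, adjusted p = 3e-11), as did Ccl4 (2.37), Ly6c2 (0.94) and S100a6 (3.64), while Isg15 was higher (3.79) and Ifit1 lower (-1.41).

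Length moved with the OT-I differences as well, and the other way from the TILs. In the shortest of the 4 length classes the median log2 fold change of Bcl6-overexpressing over control cells was 0.46, with 1003 genes higher and 324 lower, and in the longest it was -0.11, with 358 higher and 593 lower. Bcl6-overexpressing libraries held 13316 and 13165 genes with a count, against 15121 and 15147 in control libraries. The part of length or detection in the OT-I values was not tested.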

How the data were processed

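Total RNA was extracted with Trizol and libraries were made by BGI Genomics, per the labels' protocols. Per the file headers, the deposited tables give a read count and an FPKM value for each gene and library. The counts are whole numbers, and the FPKM values were scaled by the authors for length and depth. Per the submitters' processing notes, the TIL reads went through Bowtie2, Subread, featureCounts, edgeR and DESeq2, and the OT-I reads through HISAT2, featureCounts, RSEM and DESeq2, on mm10. The sources used here give neither the versions and roles of these tools nor the use of strand. Of 15319 genes listed for the TILs, 15292 were matched to GENCODE M21 for positions.

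The 6 TIL libraries were fitted together with edgeR 4.0.16 in R 4.3.3 (TMM scaling, two-sided quasi-likelihood F test, Benjamini-Hochberg adjustment over every gene tested). Tested were the 9791 genes whose FPKM averaged 1 or more in the Bcl6+ and DN libraries. The SE is the size of the log2 fold change divided by the root of F, and the biological coefficient of variation was 0.15. OT-I libraries were fitted apart (9669 of 15216 genes, coefficient 0.164). The procedure was also run on simulated counts with planted changes. These had the same spread for all genes, unlike the data, so no conclusion is drawn from them. Alternatives used limma 3.58.1 on log2(FPKM + 1), log2(FPKM + 0.1) or log2(TPM + 1), DESeq2 1.42.0, other scalings and filters, a replicate block, and leaving out each library.

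Members, lists and tests were chosen with earlier results of these data known. Genes were named by rule: the 15 largest called changes each way (groups not overlapping, mean of 5 FPKM or more), the markers of the sort and of each state, the 4 smallest p of every list, and the 6 members of the transcription factor lists with intervals closest to 0. Any other gene named was picked once its values were known. Trac, Trbc1 and Trbc2 were not analysed here. Promoter sequences are from RefSeq (GRCm38.p6).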

Additional observations from a re-analysis of the deposited data

How the results depend on the processing

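The direction of change was the same under every alternative for all 412 called genes of the lists and rules; 283 of these kept their call under all alternatives and 129 lost it without 1 library. Leaving out 1 TIL library gave 712 (DN replicate 1) to 1484 (TIM-3+ replicate 2) calls and 249 to 394 calls of at least 2-fold; calls numbered 747 without DN replicate 2. With a mean of at least 5 FPKM, 221 genes passed 2-fold. Of the genes past 2-fold, fewer were higher than lower without Bcl6+ replicate 1 (157 and 195), Bcl6+ replicate 2 (150 and 184) or DN replicate 2 (117 and 132), with no filter (184 and 210), and under limma on log2(FPKM + 1) (134 and 137) or log2(FPKM + 0.1) (170 and 179). TPM scaling turned the balance of calls to 781 higher and 603 lower (56.4% higher, against 46.2%), and moved the median of all genes to 0.08; with total counts 691 were higher and 680 lower. DESeq2 called 1595 genes and limma on log2(FPKM + 1) 1422. The OT-I count ranged from 3252 (without control replicate 1) to 5232 (without Bcl6-overexpressing replicate 2) with 1 library left out, and was 7003 with no filter on low values, where fewer were higher (2974) than lower (4029). Bcl6+ and DN libraries of equal replicate number showed no shared shift (correlation of deviations 0.02). This cannot tell whether such libraries came from the same animal. With a replicate block 1347 genes were called, 351 by at least 2-fold, and 4621 in the OT-I experiment.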

Other observations

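A set of genes outside the lists, chosen after their values were seen, also differed between Bcl6+ and DN cells. Kit, the stem cell factor receptor, measured 285 and 275 CPM in Bcl6+, 45.1 and 51.3 CPM in TIM-3+ and 112 and 104 CPM in DN libraries (log2 fold change 1.37, SE 0.1, adjusted p = 7.9e-07). Cd81, a tetraspanin, measured 235 and 224 CPM in Bcl6+, 15.4 and 19.6 CPM in TIM-3+ and 77.6 and 84.6 CPM in DN libraries (log2 fold change 1.5, SE 0.12, adjusted p = 2.2e-06). Bcl6+ libraries were the highest of the 3 groups in both genes. Crtam, an adhesion receptor of activated CD8+ T cells, measured 410.2 and 426 CPM in Bcl6+, 69.3 and 82 CPM in TIM-3+ and 194 and 189 CPM in DN libraries (log2 fold change 1.13, SE 0.09, adjusted p = 1.7e-06). Slamf7, another SLAM receptor, measured 276 and 327 CPM in Bcl6+, 73.9 and 82.8 CPM in TIM-3+ and 121 and 117 CPM in DN libraries (log2 fold change 1.34, SE 0.1, adjusted p = 1.5e-06). Igfbp2, a binding protein of insulin-like growth factors, measured 166 and 171 CPM in Bcl6+ libraries, against 53 and 45.8 CPM in DN libraries (log2 fold change 1.77, SE 0.18, adjusted p = 1.5e-05). Irs2, a docking protein gene (1.58), and Tbc1d4, which governs glucose transporter traffic (log2 fold change 1.78, SE 0.1, adjusted p = 8e-08), were also higher. Dll1, a Notch ligand (1.83), Axl, a receptor kinase (1.34), Dclk1 (1.63), Ptprk, a receptor phosphatase (log2 fold change 1.89, SE 0.11, adjusted p = 1.4e-07), and Vcam1 (2.24) were higher too. Serpine2, a protease inhibitor gene, measured 1303 and 1272 CPM in Bcl6+, 1249 and 1275 CPM in TIM-3+ and 671 and 646 CPM in DN libraries (log2 fold change 0.97, SE 0.05, adjusted p = 3.3e-08). Stat3 measured 2042 and 1938 CPM in Bcl6+, 1925 and 1976 CPM in TIM-3+ and 1455 and 1472 CPM in DN libraries (log2 fold change 0.44, SE 0.04, adjusted p = 1.3e-05). In both, DN libraries were the lowest of the 3 groups. The call of Vcam1 was lost without DN replicate 1.

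Genes that were lower in Bcl6+ cells included Fgl2, a secreted fibrinogen-like protein, at 27.6 and 19.2 CPM in Bcl6+, 232 and 231 CPM in TIM-3+ and 105 and 104 CPM in DN libraries (log2 fold change -2.16, SE 0.15, adjusted p = 3.8e-07). F2r, the thrombin receptor, measured 38.3 and 38.7 CPM in Bcl6+, 348 and 382 CPM in TIM-3+ and 112 and 115 CPM in DN libraries (log2 fold change -1.56, SE 0.09, adjusted p = 1.3e-07). In both, DN libraries lay between the other groups. Adgrg1 (-1.55), Sema4a (-1.59), Adam8 (-1.76) and Plac8 (-1.68) were lower too, as was Prex1, an activator of Rac (log2 fold change -1.89, SE 0.13, adjusted p = 6.4e-07). Ifi206 measured 37.8 and 37.6 CPM in Bcl6+, 140.3 and 124 CPM in TIM-3+ and 149 and 145 CPM in DN libraries (log2 fold change -1.96, SE 0.11, adjusted p = 1e-07). Of the Ifi200 family, 7 of 9 tested genes were lower. Of the Gimap GTPases of lymphocytes 5 of 8 were lower. Of 28 actin cytoskeleton genes 14 were lower and 1 higher, and of 13 mitochondrially encoded genes 3 were lower. These families were chosen by name after their values were seen. Over all genes tested, 6.43% were higher and 7.5% lower.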
